A study of Rattus norvegicus with 4 samples.

Results

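The genes described here encode the kinases and arrestins that switch off G protein-coupled receptors (GPCRs), and the adaptors and sorting proteins that handle such receptors at the cell surface and in endosomes. They were chosen by name: the kinases Grk2, Grk3, Grk4, Grk5 and Grk6, the arrestins Arrb1 and Arrb2, the sorting proteins Snx27 and Vps26a, and the cargo adaptor Dab2. A probe was taken for a gene where the RefSeq transcript that it lists belongs to that gene. All 10 genes were found on the array, of 16581 genes with a matched probe, and 9 of the 10 were bright enough to be tested, of 11656 genes tested in all. They have 15 probes, of which 13 were tested.

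The cells were rat oligodendrocyte precursor cells (OPCs), prepared from cerebral cortices of Sprague–Dawley rats at postnatal day 2 that were pooled, expanded with PDGF and bFGF, and then moved to differentiating medium with the thyroid hormone T3. At that switch they received either a pool of siRNAs against the transcript of the receptor GPR17 (siGPR17) or a non-targeting pool (siNEG), at 50 nM and with the same lipid reagent, and RNA was taken 48 h later. Each group has 2 arrays, labelled as independent samples, and a label does not say whether these were separate preparations of cells. No untransfected cells were measured on the arrays, and the measurement is of RNA, so that kinase activity, receptor phosphorylation and uptake at the surface were not analysed here.

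When a GPCR is activated, GPCR kinases phosphorylate its inner face, and β-arrestins bind the phosphorylated receptor, block its G proteins and link it to clathrin and to the adaptor AP-2 for uptake. In endosomes the receptor is either sent to the lysosome or returned to the surface, and SNX27, with the retromer complex of which VPS26A is a subunit, returns receptors that end in a PDZ-binding motif. GPR17 is such a receptor, present on precursors at an intermediate stage of their maturation, and it is lost as they become mature oligodendrocytes.

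The arrays carry the marks of the labelled cells. The lineage genes Olig1, Olig2 and Sox10 had signals from 50584 to 79884 on the 4 arrays, and the precursor gene Pdgfra from 14496 to 17719. Mbp, a gene of myelin, was also bright, from 197178 to 272873. The probe of Nkx2-2, another lineage gene, was dimmer, from 267.4 to 297.6, and well above background on all 4 arrays. A signal here is the intensity of a spot after scaling each array to the 75th percentile of its probes, on the linear scale. Since intensities depend on the probe, levels are compared between groups for each probe and not between genes. The 4 arrays share 1 slide and 1 scan. The siNEG samples took one column of positions and the siGPR17 samples the other, so that slide column and treatment cannot be told apart.

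Gpr17, the target of the siRNAs, had signals of 1107 and 1113 on the siNEG arrays and of 652.3 and 639.4 on the siGPR17 arrays. Replicates lay close together and the groups were well apart. The gap was a log2 fold change of -0.78 (standard error, SE, 0.085), so the transcript was 1.72-fold lower, and its adjusted p was 0.209 (limma with Benjamini-Hochberg adjustment). The comparison of the other genes is thus one of cells with less of the receptor's transcript and not of cells without it. In bulk RNA, fewer cells of a type and less RNA per cell cannot be told apart.

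Among the 9 tested genes of receptor desensitization and sorting, 0 were past a fold change of 1.5 with an adjusted p under 0.07 in limma, and over all genes 0% passed. At an unadjusted p under 0.05 limma gave 1 of the 9, Dab2, where 16.2% of all tested genes met that level. That count stayed at 1, Dab2, with the median of bright probes, beside 15.6% of all genes, and with the mean over probes, beside 15.7%. It was also 1 with the replicate number as a block, beside 11%, and, of 10 genes, with no filter on dim probes, beside 10.8%. With normexp, quantile normalization or the filter on all 4 arrays it was 4, Arrb1, Dab2, Grk5 and Snx27, beside 19.6%, 18.7% and 17.8%, and with spike-in scaling it was 2, Dab2 and Grk5, beside 18.5%. With the thresholds, 0 of the 9 passed in the unpaired test that the study's general methods name, with the same adjustment. Of the 9, 0 passed in limma with trend and robust options or in the other alternatives run on all 4 arrays. Of all genes, 1.58% passed with the trend and robust options and 0.961% with normexp. In the unpaired test and the other alternatives on all 4 arrays no gene passed, so 0 of the 9 says nothing about these genes there. At an unadjusted p under 0.05 the unpaired test gave 2 of the 9, Arrb1 and Dab2, beside 14.4% of all genes. The trend and robust options gave 4, Arrb1, Dab2, Grk5 and Snx27, beside 20.8% of all genes. Of the 9, 3 were higher and 6 were lower in siGPR17 OPCs, and their log2 fold changes had a median of -0.12, beside 0.01 over all genes tested. This lean is small and rests on siNEG replicate 2, without which 4 were higher and 5 were lower and the median was -0.0034, and the median was -0.05 with normexp and with the mean over probes. Only Dab2 differed by a fold of 1.5 or more, which 5.08% of all genes did.

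The groups were free of overlap for 7 of the 9 genes, beside 53.4% of all genes. In 4 of them the siGPR17 arrays were the lower, Arrb1, Arrb2, Snx27 and Dab2, beside 25.3% of all genes. In the other 3 they were the higher, Grk4, Grk5 and Vps26a, beside 28.1% of all genes. Scaling the arrays on their spike-in controls instead raised the median of all genes by 0.128 on the log2 scale. Under it Grk2 and Arrb2 turned from lower to higher, so that 5 of the 9 were higher with a median of 0.0051. The spike-in controls lay 4.61 and 4.78 above the 75th percentile on the siNEG arrays (log2 scale) and 4.59 and 4.55 on the siGPR17 arrays. The shift, and with it these turned signs, thus rests largely on siNEG replicate 2.

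**Figure D1:**
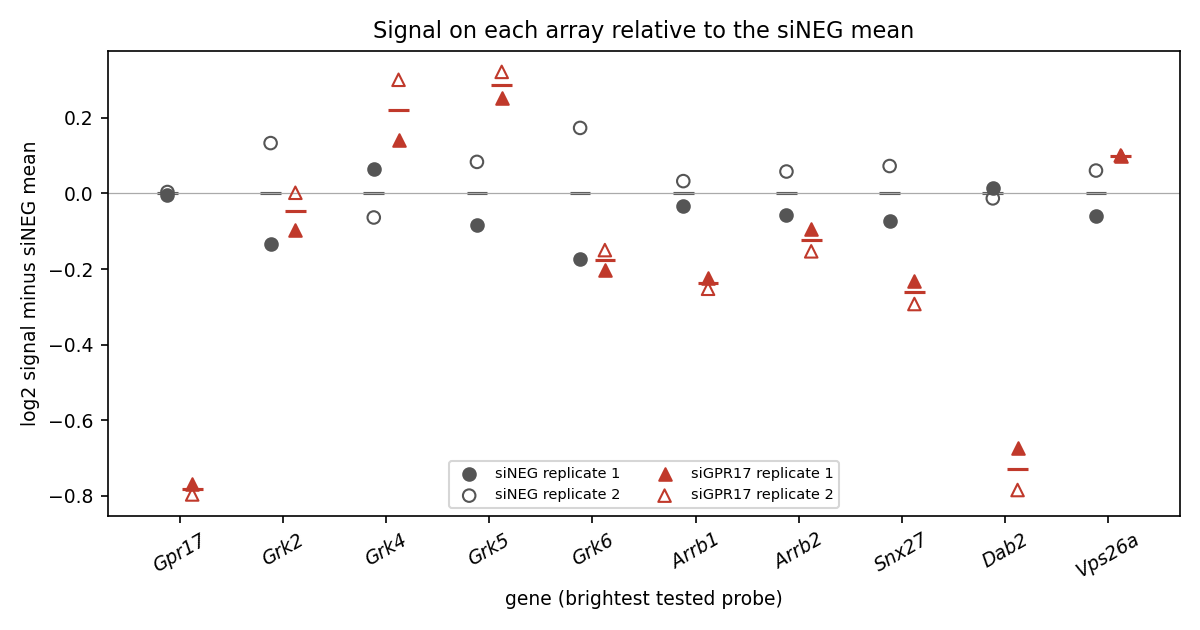
Signal of Gpr17 and of the 9 tested genes on each array, as the log2 difference from the mean of the siNEG arrays of the same gene (vertical axis), by gene (horizontal axis). Circles are siNEG and triangles siGPR17 arrays, filled for replicate 1 and open for replicate 2, and short lines are group means; Dab2 lies near Gpr17, at -0.73 and -0.78, and the means of the other genes lie between -0.26 and 0.29 (with spike-in scaling each siGPR17 mean moves up by 0.128, and the means of Grk2 and Arrb2 turn positive).

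GPCR kinases fall into families. Grk2 and Grk3 encode kinases that Gβγ subunits bring to the membrane, whereas Grk4, Grk5 and Grk6 encode kinases that sit at the membrane by other means. Grk2, the widely expressed member of the former family, had signals of 512.8 and 616.7 on the siNEG arrays and of 526.3 and 563.04 on the siGPR17 arrays. The siGPR17 values fell inside the span of the siNEG values, so the groups overlapped. Its log2 fold change was -0.05 (SE 0.13, 95% interval from -0.40 to 0.31, adjusted p = 0.876 in limma). The sign rests on single arrays, since the value was 0.0861 without siNEG replicate 2 and 0.0017 without siGPR17 replicate 1.

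The probe of Grk3 did not rise well above background on any array. Its signals were 3.46 and 12.3 on the siNEG arrays and 3.60 and 3.35 on the siGPR17 arrays, so that no fold change is given. The transcript was not detectable with this probe in either group. A probe that fails would look the same.

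For Grk4, the signals were 496.7 and 454.8 on the siNEG arrays and 524.05 and 585.4 on the siGPR17 arrays. Both siGPR17 values were above both siNEG values, by less in replicate 1 of siGPR17 than in replicate 2. In log2 terms the change was 0.22 (SE 0.11, 95% interval from -0.08 to 0.52, adjusted p = 0.387 in limma), and it lay between 0.14 and 0.30 with each array left out in turn.

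Grk5 encodes a kinase of the same family that binds membrane lipids directly and also enters the nucleus. Its signals were 348.9 and 391.6 on the siNEG arrays and 440.2 and 461.8 on the siGPR17 arrays. The siGPR17 arrays were again the higher, and the gap between the groups exceeded the distance between replicates. The log2 fold change was 0.29 (SE 0.10, 95% interval from -2.2e-05 to 0.57, adjusted p = 0.299 in limma). It kept its sign, between 0.20 and 0.42, over the 14 alternatives. Those that change only the filter or the test leave the value as it is.

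Grk6, a palmitoylated kinase, had signals of 2056 and 2614 on the siNEG arrays and of 2013 and 2089 on the siGPR17 arrays. One siNEG array, replicate 2, was high, and the other lay among the siGPR17 arrays. The log2 fold change was -0.18 (SE 0.15, adjusted p = 0.578 in limma), and leaving out siNEG replicate 1 gave -0.35 and leaving out siNEG replicate 2 gave -0.0034. A dimmer probe of Grk6 read 288.9 and 254.8 in siNEG and 256.0 and 286.7 in siGPR17 OPCs, where the groups overlapped fully and the log2 fold change was -0.0021.

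As a description that does not depend on the scaling between arrays, the log2 ratio of Grk5 to Grk6 was taken within each array and set to a mean of 0 in siNEG. It was 0.09 and -0.09 on the siNEG arrays and 0.46 and 0.47 on the siGPR17 arrays. The ratio of Grk5 to Grk2 was 0.05 and -0.05 on the siNEG arrays and 0.35 and 0.32 on the siGPR17 arrays. In both ratios the siGPR17 arrays were above the siNEG arrays. With the dimmer probe of Grk6 the ratio of Grk5 to Grk6 was -0.17 and 0.17 on the siNEG arrays and 0.34 and 0.24 on the siGPR17 arrays. These pairs were picked after the values were seen and carry no test, and a ratio shows unequal change without saying which gene moved.

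Arrb1 encodes β-arrestin 1, an adaptor of GPCR uptake that also works in the nucleus. Its brightest probe, A_43_P11303, had signals of 2395 and 2506 on the siNEG arrays and of 2098 and 2057 on the siGPR17 arrays. Replicates were close and both siGPR17 arrays were lower. On the log2 scale the difference was -0.24 (SE 0.087, 95% interval from -0.48 to 0.0012, adjusted p = 0.301 in limma).

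A dimmer probe of Arrb1, A_44_P402468, went the other way. It read 60.9 and 61.9 on the siNEG arrays and 67.3 and 68.6 on the siGPR17 arrays, higher on both of the latter, with a log2 fold change of 0.15 (SE 0.085, adjusted p = 0.442 in limma). These probes list different transcripts of the gene, and which exons they bind was not examined. Another probe, A_44_P1101301, was at background on all arrays. With the mean over the tested probes in place of the brightest, the value for Arrb1 was -0.05, and with spike-in scaling of the brightest probe it was -0.11.

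Arrb2 encodes β-arrestin 2, the partner with the wider part in receptor uptake. Its signals were 1658 and 1797 on the siNEG arrays and 1618 and 1552 on the siGPR17 arrays. The siGPR17 arrays were both lower, though the nearest arrays of the groups differed by less than the replicates did. The log2 fold change was -0.12 (SE 0.095, 95% interval from -0.38 to 0.14, adjusted p = 0.548 in limma). It was -0.07 without siNEG replicate 2 and turned to 0.0051 with spike-in scaling.

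Snx27 encodes sorting nexin 27, whose PDZ domain holds receptors that end in a PDZ-binding motif, GPR17 among them, for return from endosomes to the surface. The brightest probe had signals of 23744 and 26253 on the siNEG arrays and of 21265.5 and 20386 on the siGPR17 arrays. Both siGPR17 arrays were below both siNEG arrays, with a gap about as wide as that between the siNEG replicates. The log2 fold change was -0.26 (SE 0.10, 95% interval from -0.54 to 0.01, adjusted p = 0.310 in limma), and it lay between -0.33 and -0.13 over the alternatives. A dimmer probe that lists the same transcript read 82.9 and 69.9 in siNEG and 66.9 and 80.0 in siGPR17 OPCs. There the groups overlapped, and the log2 fold change was -0.06 (SE 0.15).

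Vps26a encodes a subunit of the retromer core to which SNX27 binds. Its brightest probe had signals of 4243 and 4613.5 on the siNEG arrays and of 4738 and 4743 on the siGPR17 arrays. The siGPR17 arrays were nearly equal and just above the higher siNEG array. This is a log2 fold change of 0.10 (SE 0.094, 95% interval from -0.16 to 0.36, adjusted p = 0.620 in limma), with 0.04 without siNEG replicate 1, 0.16 without siNEG replicate 2 and 0.23 with spike-in scaling. Another probe of Vps26a read 886.04 and 922.8 in siNEG and 1077 and 1029 in siGPR17 OPCs, again higher on both siGPR17 arrays, with a log2 fold change of 0.22 (SE 0.089, adjusted p = 0.328 in limma).

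Within each array, the log2 ratio of Snx27 to Vps26a, set to a mean of 0 in siNEG, was -0.01 and 0.01 on the siNEG arrays and -0.33 and -0.39 on the siGPR17 arrays. It was lower on both siGPR17 arrays, whereas with the dimmer probe of Snx27 the groups overlapped, at 0.18 and -0.18 in siNEG and -0.28 and -0.03 in siGPR17 OPCs. The paralogue Vps26b, whose product takes the place of VPS26A in a part of the retromer complexes, had signals of 3399 and 4751 in siNEG and of 3011 and 2954 in siGPR17 OPCs. Both siGPR17 values were the lower, while the siNEG values lay far apart, and the log2 fold change was -0.43 (SE 0.19, adjusted p = 0.346 in limma), or -0.19 without siNEG replicate 2. The ratio of Vps26a to Vps26b was 0.18 and -0.18 on the siNEG arrays and 0.52 and 0.54 on the siGPR17 arrays. As with the kinases, these pairs were picked with the values in view.

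Dab2 encodes a cargo adaptor that binds clathrin, AP-2 and the tails of LDL receptor relatives. It had signals of 83.9 and 82.4 on the siNEG arrays and of 52.1 and 48.3 on the siGPR17 arrays. Replicates were within a few units of each other and the groups were far apart. The means were 83.1 ± 1.06 (SD, n = 2) and 50.2 ± 2.71 (SD, n = 2), and the log2 fold change was -0.73 (SE 0.093, 95% interval from -0.98 to -0.48, adjusted p = 0.209 in limma), a 1.66-fold lower signal. The adjusted p lay between 0.0752, with the trend and robust options, and 0.665 over the alternatives, and so above 0.07 in each.

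The probe of Dab2 was dim but well above background on all arrays, and it stands at 2 places on each of them. At one place the processed intensity before scaling was 92.5 and 87.7 on the siNEG arrays and 55.0 and 50.9 on the siGPR17 arrays. At the other it was 80.2 and 83.9 on the siNEG arrays and 48.7 and 40.6 on the siGPR17 arrays. Both places thus showed the lower signal on both siGPR17 arrays. Before background correction the spots read 114.5 to 128.0 in siNEG and 82.0 to 92.5 in siGPR17 OPCs, over a local background of 45.0 to 55.0 on the 4 arrays. With normexp, which starts from the spot median, corrects the background in another way and adds an offset of 50, the log2 fold change was -0.27, in the same direction. Which of these steps makes it smaller was not tested.

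**Figure D2:**
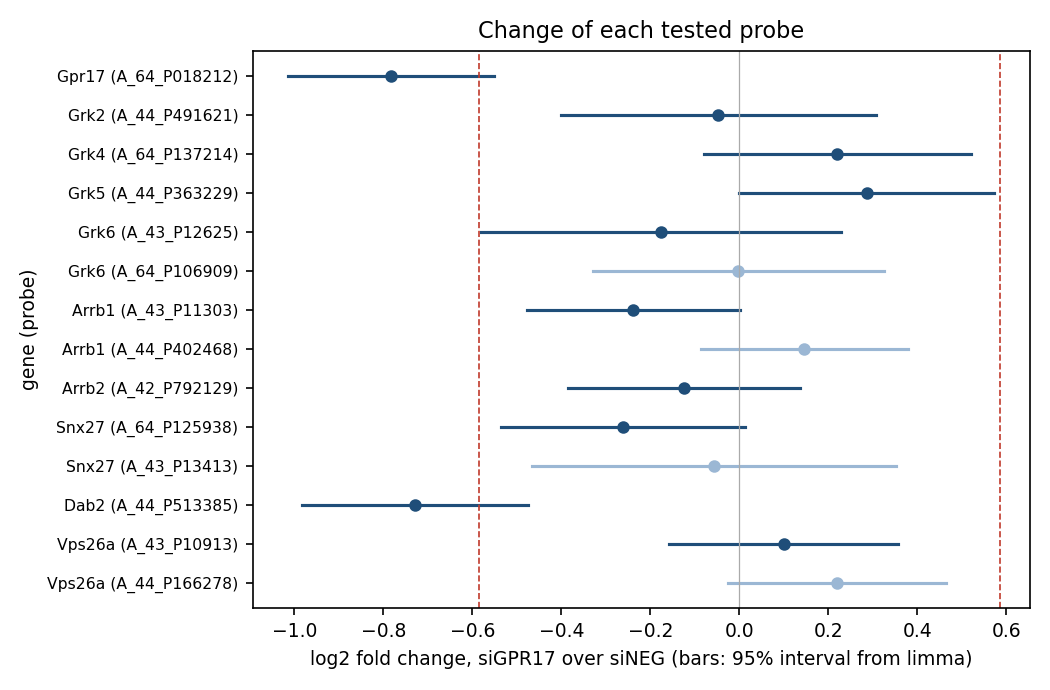
Log2 fold change of siGPR17 over siNEG OPCs (horizontal axis; points) with its 95% interval from limma (bars), for each tested probe of Gpr17 and of the 9 genes (vertical axis). Dark points are the brightest tested probe of a gene and pale points its dimmer probes, and dashed lines mark a fold of 1.5; among the 9 genes, only the interval of Dab2 reaches past a dashed line, and the probes of Arrb1 lie on opposite sides of 0.

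Dab2 is also made by macrophages, mural cells and other cells outside the lineage, so marker lists of such cells are given beside it. Of 10 microglial markers, 8 were tested and all 8 were lower in siGPR17 OPCs (median -0.19 on the log2 scale). Without siNEG replicate 1, 5 of the 8 were higher (median 0.09), and without siNEG replicate 2 all 8 were lower (median -0.55). With spike-in scaling or with normexp, 2 of the 8 were higher. Their summed signal was 3475 and 1914 on the siNEG arrays and 2035 and 2529 on the siGPR17 arrays. The sum is highest on siNEG replicate 1 and lowest on siNEG replicate 2, and most of it comes from the brightest probe, that of Cx3cr1, at 2512 and 1241 in siNEG and 1338 and 1884 in siGPR17 OPCs. Csf1r and Ptprc were at background on all arrays. Aif1 was lower on both siGPR17 arrays, at 46.1 and 43.5 in siNEG and 33.0 and 27.8 in siGPR17 OPCs (log2 fold change -0.56, or -0.11 with normexp), and so was P2ry12, at 382.6 and 353.4 against 306.9 and 281.95. With Tyrobp, 3 of the 8 were lower without overlap of the groups, beside 25.3% of all genes. The groups overlapped for Cx3cr1, Itgam, C1qa, C1qb and Tmem119.

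All 5 markers of perivascular macrophages, Mrc1, Cd163, Lyve1, Pf4 and F13a1, were below the limit of detection, with a summed signal of 17.6 and 18.7 in siNEG and of 17.9 and 18.7 in siGPR17 OPCs. Of 7 markers of fibroblasts and mural cells, 2 were tested, both collagen genes with overlapping groups, whose median of 0.32 was 0.04 without siNEG replicate 2, with summed signals of the 7 at 427.2 and 313.9 in siNEG and 448.8 and 428.2 in siGPR17 OPCs. The brightest probe was that of Col1a2, and Dcn, Lum, Pdgfrb and Rgs5 were at background on all arrays. Of 5 endothelial markers, 3 were tested and all 3 were higher, with sums of 312.9 and 344.2 against 490.1 and 496.03. The brightest probe was that of Kdr, and Pecam1 and Cldn5 were not well above background.

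Of 5 astrocyte markers, Gfap, Aqp4 and Slc1a3 were lower on both siGPR17 arrays. The other 2, Gja1 at 0.33 and Aldh1l1 at 0.27 on the log2 scale, had overlapping groups, and turned to -0.02 without siNEG replicate 1 and to -0.04 without siGPR17 replicate 2, in that order. The summed signal, nearly all from the probe of Slc1a3, was 7488 and 8101 in siNEG and 5994 and 5896 in siGPR17 OPCs. Aqp4 had the lowest log2 fold change, -1.35 (SE 0.15, adjusted p = 0.209 in limma), or -0.84 with normexp. Of 5 neuronal markers all 5 were lower, 3 of them with spike-in scaling, at sums of 2837 and 3278 in siNEG and 2703 and 2564 in siGPR17 OPCs, with the probe of Tubb3 the brightest. Of the precursor markers, Pdgfra, Cspg4, Sox6 and Ptprz1 were lower, and so was Gpr17, which is the target of the siRNAs. The sums of these 5 were 56705 and 58608 against 47467.5 and 45755, with the probes of Pdgfra and Cspg4 the brightest. Of 6 myelin markers, 2 were higher and 4 were lower, with a median of -0.23, or -0.11 without siNEG replicate 2 or with spike-in scaling. Mbp was highest at 0.32 and Mog lowest at -0.67. Their sums, with the probe of Mbp the brightest, were 285725 and 320940 in siNEG and 336985 and 350857 in siGPR17 OPCs. The part of other cell types and of the stage of the cells in the values of Dab2 was not tested.

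The size of change that the arrays leave for each gene can be read from the intervals. For 8 of the 9 tested genes, all but Dab2, the 95% interval from limma lay within a fold of 1.5 in either direction, as it did for 67.6% of all genes. That count moved with the arrays used. It was 5 when siNEG replicate 1 was left out (61.8% of all genes), 7 when siNEG replicate 2 was (67.9%), and 1 when siGPR17 replicate 1 (25.7%) or siGPR17 replicate 2 was (28.1%). It was 5 with the replicate number as a block (59.6%), 6 with spike-in scaling (58.4%) or with the median of bright probes (67.0%), and 9 with normexp (92.9%). With 2 arrays per group, 0.333 is the smallest two-sided p of an exact permutation test, so none was used for single genes.

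Around these genes, 9 lists of the wider machinery of receptor uptake and sorting hold 146 genes, of which 122 were tested. Of the 122, 60 were higher and 62 were lower in siGPR17 OPCs (median -0.02 on the log2 scale). With spike-in scaling 85 were higher, without siNEG replicate 1 there were 50 and without siNEG replicate 2 there were 73. In limma 0 passed the thresholds, beside 0% of all genes. An unadjusted p under 0.05 was met by 15, 6 higher and 9 lower, beside 16.2% of all genes, and the groups did not overlap for 64, beside 53.4%, so that neither count sets the lists apart from other genes. The former moved with the arrays used, as it did for all genes: it was 26 without siNEG replicate 1, beside 22.9% of all genes, and 17 without siNEG replicate 2, beside 16.8%. It was 10 without siGPR17 replicate 1, beside 6.58%, and 3 without siGPR17 replicate 2, beside 6.07%. With all 4 arrays kept, the count at that level was 24 with the trend and robust options, beside 20.8% of all genes, and 23 with normexp, beside 19.6%. It was 22 with spike-in scaling, beside 18.5%, and 11 with the replicate number as a block, beside 11%. The 16.2% of all genes in the main fit is the background for the count given with each list. In the unpaired test 0 of the 122 passed, and 0 of all 11656 genes. Txnip alone passed with normexp, where 0.961% of all genes did, and with the trend and robust options, where 1.58% did.

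Clathrin and its adaptors form the coat in which arrestin-bound receptors gather. Of 20 genes, 16 were tested, 10 higher and 6 lower, with a median of 0.02 that ranged from -0.04 without siNEG replicate 1 to 0.14 with spike-in scaling, and 0 had an unadjusted p under 0.05. Ap2m1, the subunit of AP-2 that reads sorting motifs, had the brightest probe, at 75284 and 92710.0 in siNEG and 81679 and 82673 in siGPR17 OPCs, with siGPR17 values inside the siNEG span. The ends of the list were Fcho2, an early factor of coat assembly, at 0.20 (SE 0.093), and Epn2, an epsin, at -0.13 (SE 0.12), which was -0.0040 without siNEG replicate 2.

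Dynamins cut the coated vesicle from the membrane, and synaptojanins and Hsc70 strip its coat. Of 15 genes, 14 were tested, 6 higher and 8 lower, with a median of -0.10 that ranged from -0.20 without siNEG replicate 1 to 0.03 with spike-in scaling. Dnm2, the dynamin of most cells, was at 0.10 (SE 0.17) and -0.12 without siNEG replicate 1. Hspa8, the gene of Hsc70, was the brightest, at 0.05 (SE 0.089), or 0.0098 without siNEG replicate 1. Sh3gl2, which encodes an endophilin, was lowest at -0.44 (SE 0.13), from 36.2 and 38.2 in siNEG to 30.3 and 24.7 in siGPR17 OPCs, and with normexp this dim probe gave -0.15. It and Synj2, a synaptojanin gene at -0.37, were the genes of the list with an unadjusted p under 0.05 in limma (2 of 14). Synj2 was named after its value was seen.

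Retromer, the actin-nucleating WASH complex and sorting nexins carry cargo out of endosomes. Of 20 genes, 17 were tested, 9 higher and 8 lower, with a median of 0.05. That median was 0.0094 without siNEG replicate 1, 0.017 and 0.016 without siGPR17 replicate 1 and 2, and 0.18 with spike-in scaling. Snx1, a sorting nexin that shapes endosomal tubules, had the brightest probe and signals of 35056 and 39220.2 in siNEG and 28741 and 26570.0 in siGPR17 OPCs. Both siGPR17 arrays were lower, by more than the replicates differed, with a log2 fold change of -0.42 (SE 0.11, adjusted p = 0.234 in limma). Vps35l, a subunit of the retriever complex, which returns cargo by a route beside retromer, was highest at 0.29 (SE 0.09, adjusted p = 0.268 in limma). Vps26b was lowest, with the values given above. Snx1 and Vps35l were the 2 genes of the 17 with an unadjusted p under 0.05 in limma.

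Rab GTPases name the early and recycling endosomes. Of 24 genes, 19 were tested, 10 higher and 9 lower, with a median of 0.02, and 0 had an unadjusted p under 0.05. The split rests on the scaling and on 1 array, since 16 were higher with spike-in scaling (median 0.15) and 15 without siNEG replicate 2 (median 0.13). With the mean over probes the median was -0.0040. Rab4b, of the fast recycling route, was the brightest and was at 0.20 (SE 0.085). Rab11fip2, an effector of the slow recycling route, was highest at 0.29 (SE 0.11), or 0.19 with normexp. Rab5b, of early endosomes, was lowest at -0.21 (SE 0.11), or -0.11 without siNEG replicate 2 and -0.0849 with spike-in scaling.

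The ESCRT complexes take ubiquitinated receptors into the lysosomal path. Of 19 genes, 17 were tested, 11 higher and 6 lower, with a median of 0.09 that ranged from 0.02 without siNEG replicate 1 to 0.22 with spike-in scaling. Stam2, a subunit of the complex that first binds ubiquitinated cargo, was highest, with signals of 91.3 and 116.5 in siNEG and 146.2 and 160.9 in siGPR17 OPCs. Its groups did not overlap, and the log2 fold change was 0.57 (SE 0.16, adjusted p = 0.243 in limma). Its paralogue Stam was at 0.41 (SE 0.086, adjusted p = 0.214 in limma), with signals of 2171 and 2200.5 in siNEG and of 2951 and 2856 in siGPR17 OPCs, likewise apart.

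Chmp3, a subunit of the ESCRT complex that closes the vesicle, was lowest in the list, with signals of 5998 and 6710.1 in siNEG and 4363 and 4211 in siGPR17 OPCs. Both siGPR17 arrays were far below, at a log2 fold change of -0.57 (SE 0.10, adjusted p = 0.210 in limma). Vps37b, the brightest of the list, was at -0.13 (SE 0.14), and turned to 0.02 without siNEG replicate 2. Stam, Stam2 and Chmp3 were the genes of the list with an unadjusted p under 0.05 in limma (3 of 17), and Stam was named after its value was seen.

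Arrestin-like adaptors bring ubiquitin ligases to membrane proteins, and the ligases and their counterparts decide whether a receptor is degraded. Of 16 genes, 13 were tested, 8 higher and 5 lower, with a median of 0.03 that ranged from -0.01 without siGPR17 replicate 1 to 0.16 with spike-in scaling. Txnip, an α-arrestin that takes glucose transporters from the surface, was highest, with signals of 191.9 and 139.8 in siNEG and 291.9 and 325.6 in siGPR17 OPCs. Both siGPR17 arrays were above both siNEG arrays, and the log2 fold change was 0.91 (SE 0.19, adjusted p = 0.212 in limma). It was 0.68 to 1.14 with each array left out in turn, and it was the only gene of the 122 with a fold of 1.5 or more.

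Nedd4, the ligase that arrestins bring to the β2-adrenergic receptor, was both the brightest and the lowest gene of this list. Its signals were 11838 and 12511 in siNEG and 8521 and 8228 in siGPR17 OPCs. The siGPR17 arrays were lower by far more than the replicates differed, with a log2 fold change of -0.54 (SE 0.09, adjusted p = 0.209 in limma). Mdm2, the ligase of p53, which also ubiquitinates β-arrestin 2, was at 0.37 (SE 0.095, adjusted p = 0.235 in limma), from 1897 and 2029.7 in siNEG to 2461 and 2604 in siGPR17 OPCs. These were the 3 genes of the list with an unadjusted p under 0.05 in limma, and Mdm2 was named after its value was seen.

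PDZ proteins and other scaffolds hold receptors in place at the membrane. Of 18 genes, 17 were tested, 4 higher and 13 lower, with a median of -0.18, and with spike-in scaling 6 were higher and 11 were lower with a median of -0.05, while the median was -0.09 without siNEG replicate 1 and -0.07 with normexp. Nherf1, the scaffold that sends several receptors back to the surface, was lowest, at 380.6 and 439.9 in siNEG and 296.8 and 284.95 in siGPR17 OPCs. The groups were apart, with a log2 fold change of -0.49 (SE 0.11, adjusted p = 0.217 in limma). Git2, which with GPCR kinases acts on receptor uptake, was the brightest, at -0.18 (SE 0.10), or -0.05 with spike-in scaling and -0.10 without siNEG replicate 2. Dlg4, the gene of PSD-95, was dim and highest at 0.23 (SE 0.24), and turned to -0.01 without siNEG replicate 1. Magi1 at -0.48 and Mpdz at -0.42, both named after their values were seen, were with Nherf1 the 3 genes with an unadjusted p under 0.05 in limma.

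Of 11 cargo adaptors related to Dab2 in function and the receptors that they carry, 9 were tested, 2 higher and 7 lower. Their median of -0.04 was -0.16 without siNEG replicate 1, and it turned to 0.0851 with spike-in scaling, to 0.0053 with normexp and to 0.03 without siNEG replicate 2. Lrp1, a large receptor of the LDL family, was lowest, at 1810.0 and 1995 in siNEG and 1452 and 1585 in siGPR17 OPCs, with a log2 fold change of -0.33 (SE 0.11, adjusted p = 0.276 in limma). Tfrc, the transferrin receptor and a standard cargo of clathrin coats, was highest, at 11143 and 11604 in siNEG and 14201 and 13709 in siGPR17 OPCs, with a log2 fold change of 0.30 (SE 0.088, adjusted p = 0.260 in limma). For both genes the groups did not overlap, and they were the 2 of the list with an unadjusted p under 0.05 in limma. Hip1r, which ties coats to actin, was the brightest, at -0.02 (SE 0.11), and its sign changed with spike-in scaling, with normexp and without siNEG replicate 2.

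Photoreceptors have a kinase and arrestins of their own, and these were not detected. Grk1, Sag and Arr3 were not well above background on any array, with a summed signal from 21.2 to 31.0 on the 4 arrays.

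**Figure D3:**
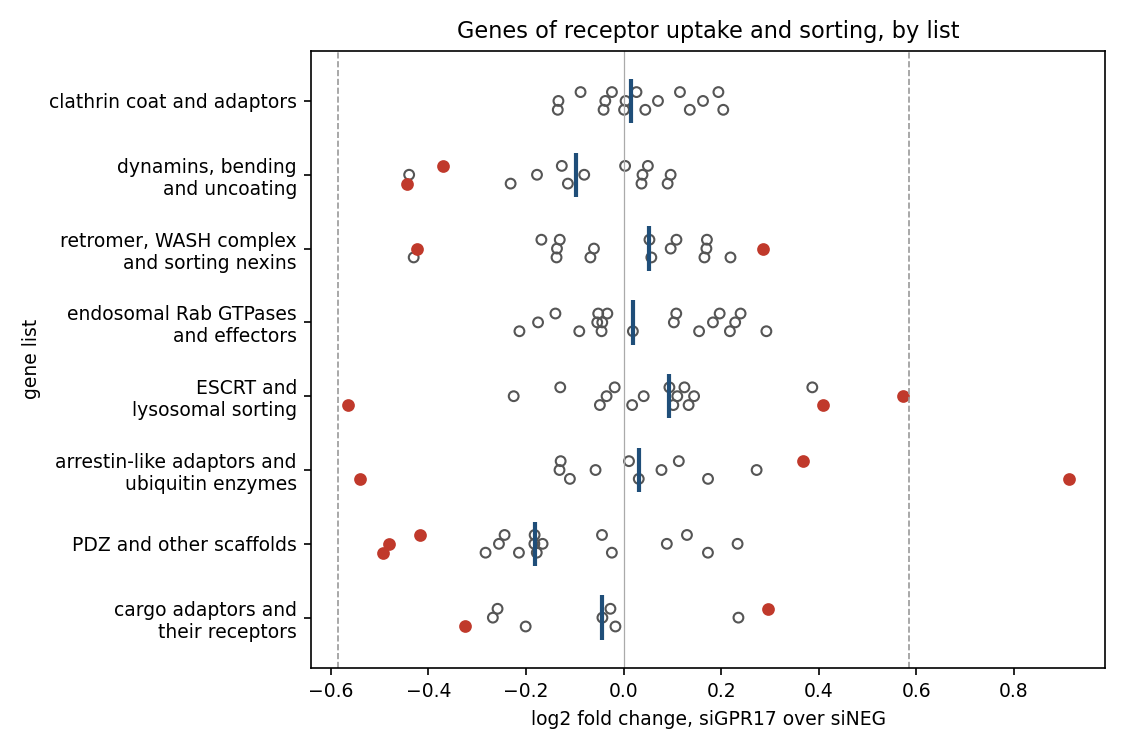
Log2 fold change of siGPR17 over siNEG OPCs (horizontal axis) for each of the 122 tested genes of the wider lists, by list (vertical axis). Filled points have an unadjusted p under 0.05 in limma and open points do not, blue lines are list medians, and dashed lines mark a fold of 1.5. Only Txnip, at 0.91, lies outside the dashed lines. With spike-in scaling every point moves up by 0.128, which takes Stam2 to 0.70 and past the upper line. That shift rests largely on siNEG replicate 2.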

How the data were processed

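RNA of 2 siNEG and 2 siGPR17 samples was measured on 1-color Agilent arrays. The authors deposited the intensity of each spot from Feature Extraction 10.7.3.1, corrected for background and trend within the array and not normalized between arrays, with the uncorrected medians of spot and background. Of 45598 non-control probes, 45565 had values on all arrays, and 26997 to 28244 were well above background on each, with 0 saturated. Log2 intensities were scaled here to each array's 75th percentile. The 28016 probes well above background on at least 2 of 4 arrays were fitted with limma 3.58.1 in R 4.3.3 (two-sided, Benjamini-Hochberg over all of them). A gene is its brightest tested probe. Probe names come from a RefSeq table of GRCr8, used for names only, since the array was designed on another build. The number of arrays limits the precision.

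The thresholds are those of the study's methods, which name a t-test only in their general statistics. The paper reports a list of differentially expressed genes at these thresholds, whereas 0 of 11656 genes passed in the main fit here. Why these differ was not tested. Named are the 10 genes, Gpr17, and of each wider list the brightest, highest and lowest tested gene and any past the thresholds. Genes and lists were chosen with earlier results of these data known. The alternatives were normexp (offset 50, on the spot median, since the files lack the mean), quantile normalization, the median of bright probes, no filter, a filter on all 4 arrays, trend and robust options, the t-test, the replicate number as a block, the mean of probes, each array left out, and spike-in scaling, the last added after the data had been seen. The code was tested on simulated data.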

Additional observations from a re-analysis of the deposited data

How the results depend on the processing

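Over 14 alternatives, 0 of the 9 genes passed the thresholds in any. Gpr17 passed with normexp (log2 fold change -0.66, adjusted p = 0.0220 from limma) and with trend and robust options (-0.78, 0.0152, the lowest adjusted p over the alternatives, where the highest was 0.665), and was -0.78 with the replicate number as a block (adjusted p = 0.390), where nothing in the labels says that samples of 1 number belong together, though the number also goes with the row of the slide. With each array left out it lay between -0.80 and -0.77. Of the wider lists 1 gene passed with normexp and 1 with trend and robust options, Txnip in both. Of all 11656 genes 112 and 184 passed in these fits, and 0 in the main scaling and test. In the other alternatives on all 4 arrays no gene passed, so that 0 of the 9 there says nothing about these genes. Grk2 reversed to 0.0815 and Arrb2 to 0.0051 with spike-in scaling, which raises every gene alike, and Grk2 lay between -0.18 and 0.0861 with each array left out, reversed in 2 of the 4 fits. The cause of the reversals with an array left out was not tested. Grk4, Grk5, Grk6, Arrb1, Snx27, Dab2 and Vps26a kept their direction in all 14. Those with another filter, the trend and robust options, the t-test or the replicate block leave the fold changes unchanged. They could not turn a sign, and the median of bright probes shifts every gene by the same small amount. The fits without an array assume that the lone sample left varies like the other group. Signal over background limits Grk3, which was fitted only with no filter on dim probes, at signals not well above background.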
